A study of Mus musculus with 12 samples.

Results

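The RGS proteins, regulators of G protein signalling, were examined in mouse atria as 9 genes, Rgs1, Rgs2, Rgs3, Rgs4, Rgs5, Rgs6, Rgs10, Rgs12 and Rgs16. The members were taken by gene symbol from the platform annotation, and every probe of a member was kept, so that 22 of the 46114 probes in the deposited table are described. Rgs3 was read by 9 probes, Rgs1 by 3, Rgs2, Rgs5 and Rgs12 by 2 each, and Rgs4, Rgs6, Rgs10 and Rgs16 by 1 each. The 6 Tbx3 mice (Cre4-CT) carried the Nppa-Cre4 transgene and the CT construct, from which Cre switches on the T-box repressor Tbx3 in the atria. The 6 Control mice carried Nppa-Cre4 without CT. All 12 animals were male, each gave 1 Illumina Sentrix Mouse-6 array, and all therefore carried a Cre driven by the promoter of the atrial natriuretic peptide gene. Mice with CT but no Cre were not among the groups, so that effects of CT alone and of Tbx3 cannot be told apart. Age and strain are not in the labels.

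A heterotrimeric G protein is switched on when a receptor loads GTP onto its alpha subunit, and RGS proteins speed the hydrolysis of that GTP, which shortens the signal. In the atrium and sinus node the best known case is the vagal brake on heart rate, in which acetylcholine, the M2 receptor and Gi or Go release beta-gamma dimers that open the channel built from the products of Kcnj3 and Kcnj5. The members fall into 3 structural subfamilies. Rgs6 belongs to the R7 subfamily, whose proteins are stabilised by the beta subunit Gnb5. Rgs10 and Rgs12 belong to the R12 subfamily, and Rgs1, Rgs2, Rgs3, Rgs4, Rgs5 and Rgs16 to the mostly small R4 proteins.

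Levels are log2 values after quantile normalization, which makes the distribution of values the same on every array, and changes are Tbx3 minus Control on that scale. The log base of the deposited table was inferred to be e, and were it 2, levels and changes would shrink by a factor of 0.693 without altering any p-value. A probe was called when its limma p-value, adjusted by the Benjamini-Hochberg method over all 46114 probes, was under 0.05. The table gives no detection value, so brightness is given as the percentile of a probe's mean level in the table, which does not compare genes. Arrays of the same group correlated at 0.970 to 0.980, and arrays of different groups at 0.963 to 0.976. The atrial identity of the tissue showed in Myl4 and Myl7, atrial light chains, which lay among the very brightest probes of the table. The brighter of 2 probes for Tbx3 averaged 6.18 ± 0.18 in Tbx3 atria and 6.59 ± 0.21 in Control atria (SD, n = 6 each), a change of -0.42 (adjusted p = 0.0263) and so lower in the mice labelled as expressing more of it. The dimmer Tbx3 probe changed by 0.02 (adjusted p = 0.982). Neither probe showed the higher level that the labels name, and whether either can detect the transgene's transcript was not determined.

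The brighter Rgs12 probe and the Rgs6 probe were higher in every Tbx3 atrium than in any Control atrium, Rgs10 was moderately higher, and the brighter Rgs5 probe was lower. Of the 22 member probes 4 were called higher, 2 were called lower and 16 did not pass. All probes together were called at 3.45%, with 1.77% higher and 1.68% lower, against 27.3% of the member probes. That background holds the dim probes and those without a symbol, while only 7 of the 22 member probes lay below the median brightness. With each gene taken by its brightest probe, 5.95% of all genes were called, and of the members Rgs5, Rgs6, Rgs10 and Rgs12. The groups did not overlap for 4 member probes, where 2.27% of all probes were so separated. By the brightest probe of each gene 4.04% of all genes were separated, and of the members Rgs6 and Rgs12. The other separated member probes were those of Rgs3 in opposite directions. The members were chosen with earlier results of the same arrays known, so these contrasts are a description.

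**Figure D1:**
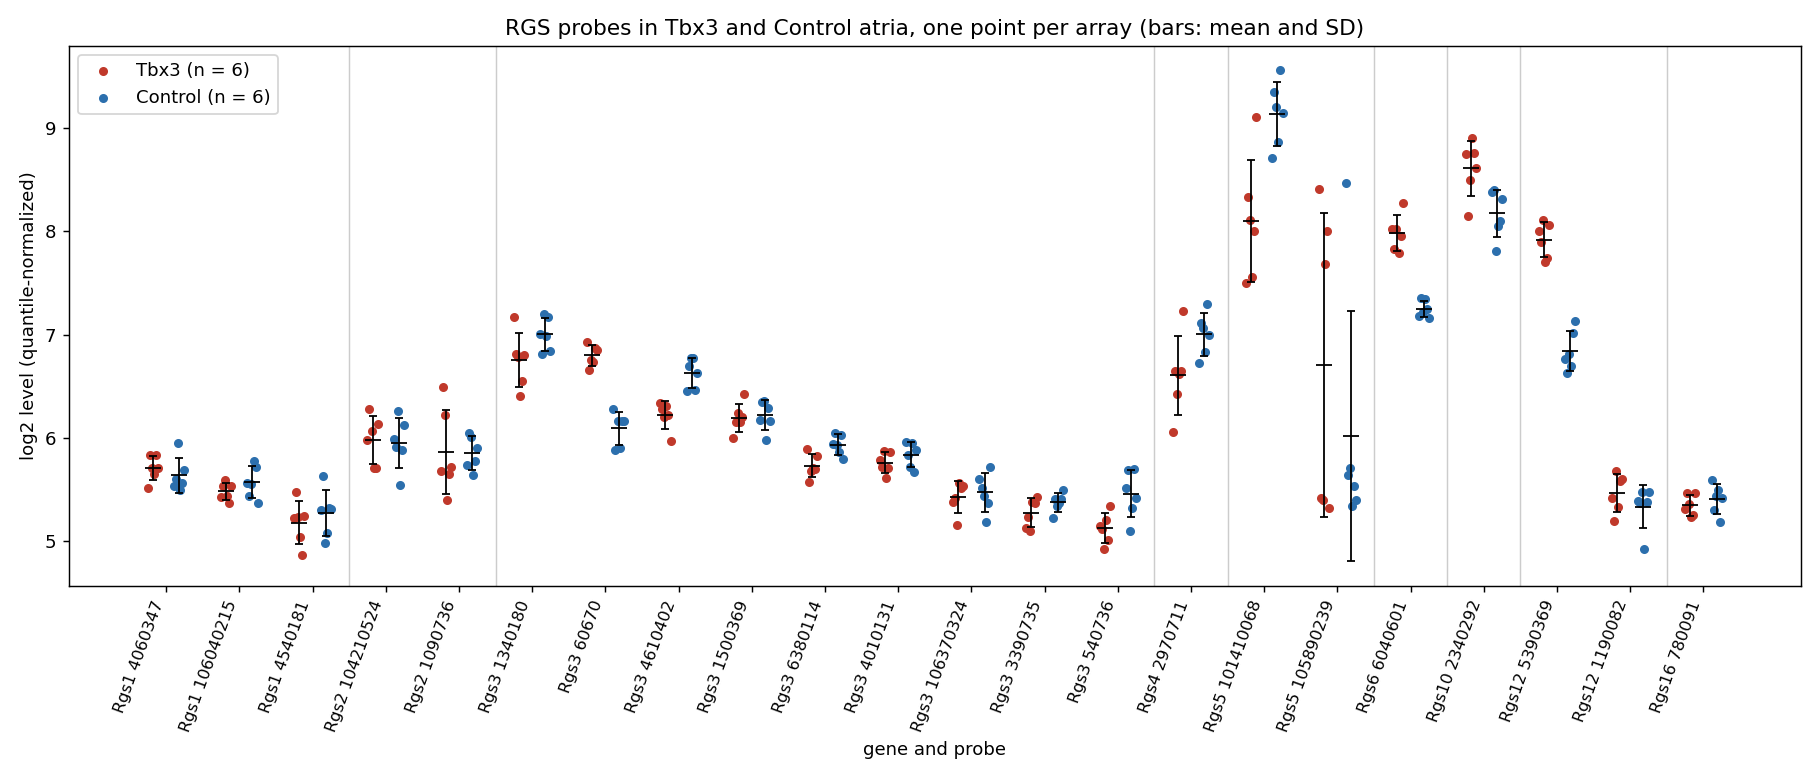
Log2 level (vertical axis, quantile-normalized) of each of the 22 RGS probes (horizontal axis) in the 6 Tbx3 arrays (red, left of each pair) and 6 Control arrays (blue, right), with 1 point per array and bars for the mean and SD. The red and blue points are fully apart for Rgs12 5390369, Rgs6 6040601, Rgs3 60670 and Rgs3 4610402, and the dimmer Rgs5 probe 105890239 splits into a high and a low set of arrays within both groups.

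Rgs12, the largest member, carries further domains beside its RGS box and acts mainly on the alpha subunits of the Gi class. Its brighter probe (5390369) ran from 7.70 to 8.11 in Tbx3 atria with a median of 7.95, and from 6.63 to 7.13 in Control atria with a median of 6.79. All 6 Tbx3 arrays thus lay above all 6 Control arrays. The means were 7.92 ± 0.17 and 6.84 ± 0.19 (SD, n = 6 each), a change of 1.08 (SE 0.11, 2.11-fold, adjusted p = 9.37e-08). The second probe (1190082), at the 34.7th percentile, averaged 5.47 ± 0.19 in Tbx3 atria and 5.34 ± 0.21 in Control atria, a change of 0.13 that did not pass (adjusted p = 0.766). Both probes are annotated to the same transcript record, and the mean of the pair rose by 0.60 (adjusted p = 0.000686).

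Rgs6 is known in mouse heart as the RGS protein that limits muscarinic slowing of the sinus node. Its probe ran from 7.79 to 8.28 in Tbx3 atria, with a median of 7.99, and from 7.16 to 7.35 in Control atria, with a median of 7.24. Every Tbx3 array lay above every Control array, and the Control arrays were close together. The means were 7.98 ± 0.18 and 7.25 ± 0.08 (SD, n = 6 each), a change of 0.73 (SE 0.10, 1.66-fold, adjusted p = 1.65e-05).

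Rgs10, a small R12 protein abundant in leukocytes and platelets as well as in heart, ran from 8.15 to 8.91 in Tbx3 atria with a median of 8.68, and from 7.81 to 8.40 in Control atria with a median of 8.21. The groups overlapped, because Tbx3 array 2 lay at 8.15, below Control arrays 1, 2 and 6 at 8.38, 8.40 and 8.31. The change was 0.44 (SE 0.12, 1.35-fold, adjusted p = 0.04). The call was lost without any 1 of 8 arrays, those of Tbx3 1, 3, 4, 5 and 6 and Control 3, 4 and 5 (adjusted p up to 0.127). Each marker gene was taken by its brightest probe, at which 5.95% of all genes passed. Of 12 measured leukocyte markers 0 passed limma's test (4 higher at an unadjusted p under 0.05), and their mean level ran from 6.62 to 6.98 in Tbx3 arrays and from 6.58 to 6.83 in Control arrays. Of 6 platelet markers 0 passed (0 at an unadjusted p under 0.05), with mean levels of 5.80 to 6.15 in Tbx3 arrays and 5.79 to 6.17 in Control arrays. Fibroblast markers were higher for 3 of 8 genes (Dpt, Lum and Col1a1) and lower for 0, with mean levels of 10.19 to 10.76 in Tbx3 arrays and 9.90 to 10.47 in Control arrays. Their part in the change of Rgs10 was not tested, and in whole tissue more cells of a type and more RNA per cell cannot be told apart.

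The sequences before the starts of Rgs12 and Rgs6 are shown because Tbx3 is a DNA-binding repressor of the T-box family. The brighter Rgs12 probe and the Rgs6 probe were higher in Tbx3 atria, with groups that did not overlap. Rgs3 probes 60670 and 4610402 were also apart, in opposite directions, and the Rgs3 windows are not printed. The letters GGTGTGA, the core of the T-box recognition sequence, were looked for on both strands in the 250 bases before each start (RefSeq, GRCm38.p6). They occur in 3.33% of the 32851 promoters of the table and in 1 of the 10 that the table holds for 8 members (Rgs1 was not matched). Capitals mark that match, which reads as TCACACC on the printed strand, and both genes are shown 5′ to 3′ on their own strand. Rgs12 has a pair of starts in the table, chr5:34949198-34949447 (+) and chr5:34998828-34999077 (+), and Rgs6 has 1, chr12:82617249-82617498 (+).
Rgs12 start 1: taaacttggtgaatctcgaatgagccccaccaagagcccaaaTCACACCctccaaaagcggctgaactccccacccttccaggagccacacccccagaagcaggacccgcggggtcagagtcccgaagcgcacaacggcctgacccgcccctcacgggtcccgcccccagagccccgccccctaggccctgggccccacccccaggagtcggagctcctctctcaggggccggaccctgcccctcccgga
Rgs12 start 2: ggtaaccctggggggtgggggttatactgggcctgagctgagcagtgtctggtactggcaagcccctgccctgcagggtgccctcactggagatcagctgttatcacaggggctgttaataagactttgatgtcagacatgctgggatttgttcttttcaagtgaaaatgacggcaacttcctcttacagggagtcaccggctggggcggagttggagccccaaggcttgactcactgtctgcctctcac
Rgs6: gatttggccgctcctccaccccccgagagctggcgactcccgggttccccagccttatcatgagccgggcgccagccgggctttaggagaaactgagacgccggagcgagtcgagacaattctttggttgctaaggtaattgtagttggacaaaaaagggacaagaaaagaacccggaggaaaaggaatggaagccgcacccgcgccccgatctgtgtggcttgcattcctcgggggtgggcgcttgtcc
The match lies at the first Rgs12 start and begins 208 bases before it, while the other windows hold none of these letters. A single match in so few windows does not set the members apart from the share of all promoters. Which start each Rgs12 probe reports on is not known here, and binding of Tbx3 was not tested.

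Rgs3, an R4 protein with long and short forms that acts on Gi and Gq alpha subunits, was called in both directions. Probe 60670 ran from 6.66 to 6.93 in Tbx3 atria, with a median of 6.80, and from 5.88 to 6.28 in Control atria, with a median of 6.16. The groups did not overlap, and the change was 0.71 (SE 0.10, 1.64-fold, adjusted p = 2.33e-05). Probe 4610402 ran from 5.97 to 6.34 in Tbx3 atria, with a median of 6.25, and from 6.45 to 6.77 in Control atria, with a median of 6.66. Here the groups were apart the other way round, with Tbx3 below, a change of -0.41 (SE 0.10, 1.33-fold lower, adjusted p = 0.0142). The other 7 probes did not pass, with changes from -0.33 to -0.03, all on the lower side. The brightest of the 9 (1340180) averaged 6.75 ± 0.26 in Tbx3 atria and 7.00 ± 0.16 in Control atria (SD, n = 6 each, change -0.25, adjusted p = 0.354).

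The platform annotation ties 7 Rgs3 probes, 4610402 among them, to 1 RefSeq record and 2 probes to another. The risen probe 60670 and probe 4010131 share the second record, yet 4010131 averaged 5.76 ± 0.10 in Tbx3 atria and 5.83 ± 0.12 in Control atria (change -0.08, adjusted p = 0.875). The record therefore does not sort the probes by direction. The mean of all 9 changed by -0.08 (adjusted p = 0.605), so no single direction stands for Rgs3.

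**Figure D2:**
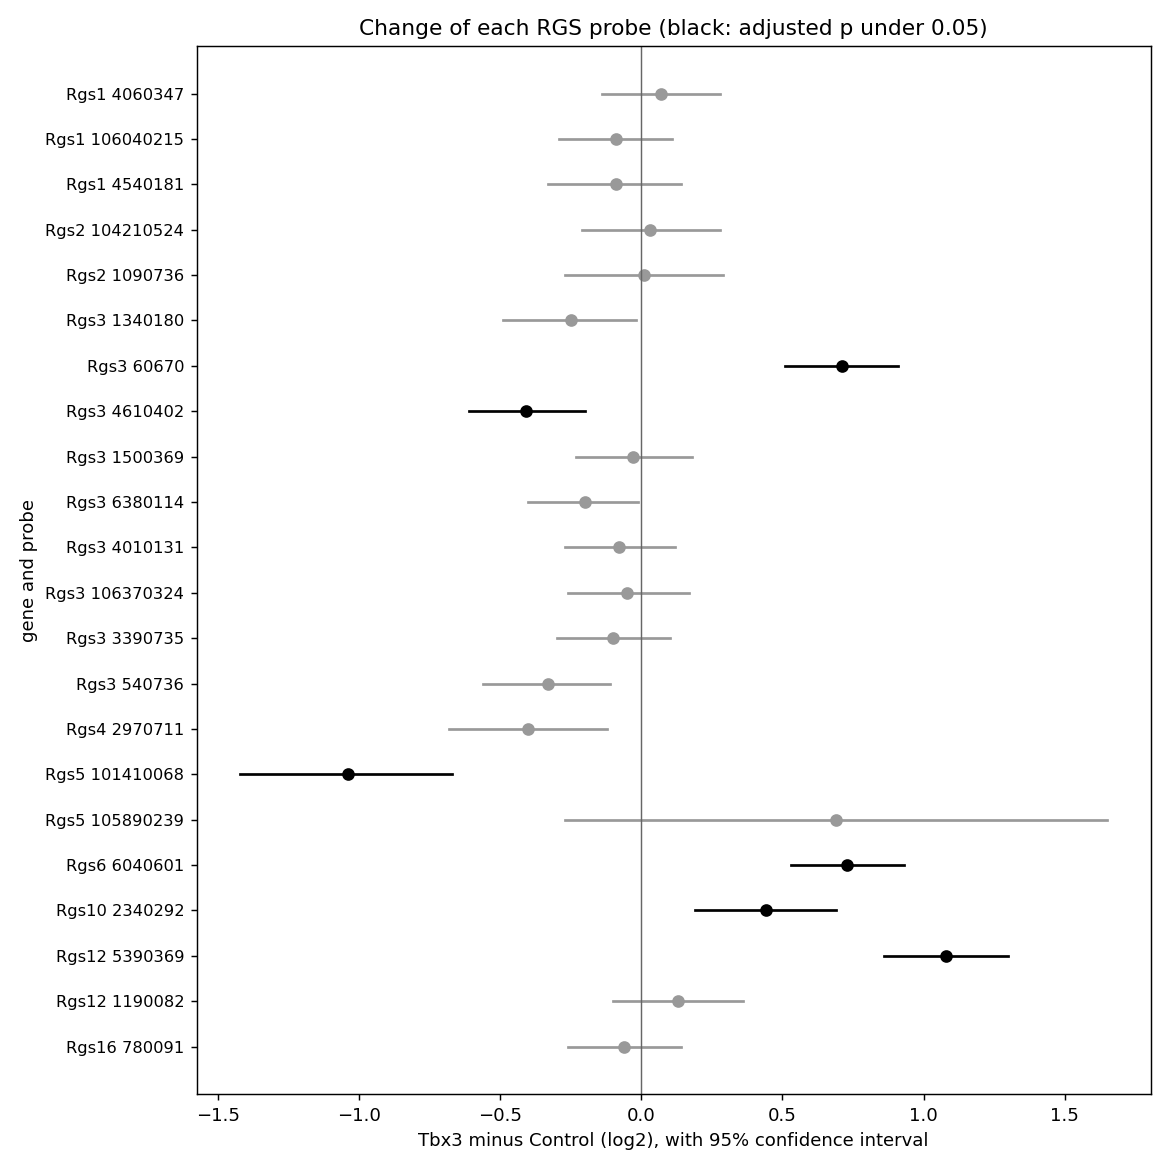
Change of each RGS probe, Tbx3 minus Control in log2 units (horizontal axis), with its 95% confidence interval from limma (lines) and the probes by gene down the page. Black marks the 6 probes past an adjusted p of 0.05 and grey the other 16. Probes of Rgs3 lie on both sides of 0, and the dimmer Rgs5 probe has the widest interval.

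Rgs5 marks pericytes and arterial smooth muscle and is also expressed in atrial muscle. Its brighter probe (101410068), at the 94.3rd percentile, read 7.50, 8.33, 8.11, 7.56, 8.00 and 9.11 in Tbx3 arrays 1 to 6, and 8.71, 9.35, 9.21, 8.87, 9.56 and 9.15 in Control arrays 1 to 6. In 5 of the 6 Tbx3 arrays the level lay below every Control array, and array 6 lay among the Controls. The means were 8.10 ± 0.59 and 9.14 ± 0.31 (SD, n = 6 each), a change of -1.04 (SE 0.18, 2.06-fold lower, adjusted p = 0.000508). With an intensity trend and robust variance in the same test it was not called (adjusted p = 0.0685).

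The dimmer Rgs5 probe (105890239) behaved differently, with a near 2-state pattern that crossed the groups. It read 8.41, 5.42, 5.40, 7.68, 8.00 and 5.32 in Tbx3 arrays 1 to 6, and 8.47, 5.64, 5.71, 5.34, 5.53 and 5.40 in Control arrays 1 to 6. Tbx3 arrays 1, 4 and 5 and Control array 1 were thus high, and the other 8 arrays lay between 5.32 and 5.71. The change of 0.69 (SE 0.47) did not pass (adjusted p = 0.661), with a 95% interval from -0.27 to 1.65. It rested on single arrays, at 1.18 without Control array 1 and at 0.35, 0.49 and 0.43 without Tbx3 arrays 1, 4 and 5 (adjusted p of 0.12 to 0.884). Without all 4 of these arrays it was -0.15 (adjusted p = 0.888). The labels name nothing that sets these 4 arrays apart from the others. The mean of both probes changed by -0.18 (adjusted p = 0.839).

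The arrays that were high on the dimmer probe were low on the brighter one. Tbx3 arrays 1, 4 and 5 held the lowest levels of the brighter probe in their group, and Control array 1 the lowest in its group. Over the 12 arrays the deviations from the group means of the 2 probes correlated at r = -0.72, a description over arrays that share both probes' RNA. Without Tbx3 arrays 1, 4 and 5 and Control array 1, a comparison added after seeing the data with 3 Tbx3 and 5 Control arrays left, the brighter probe changed by -0.71 (SE 0.18, adjusted p = 0.0672). In the same reduced comparison Rgs12, Rgs6 and Rgs3 probe 60670 changed by 1.16, 0.78 and 0.70 and were called (adjusted p of 3.09e-05, 0.00201 and 0.00477). Rgs3 probe 4610402 and Rgs10 changed by -0.51 and 0.29 and were not (adjusted p of 0.0607 and 0.671), and the called probes of the whole table numbered 413 in place of 1592.

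**Figure D3:**
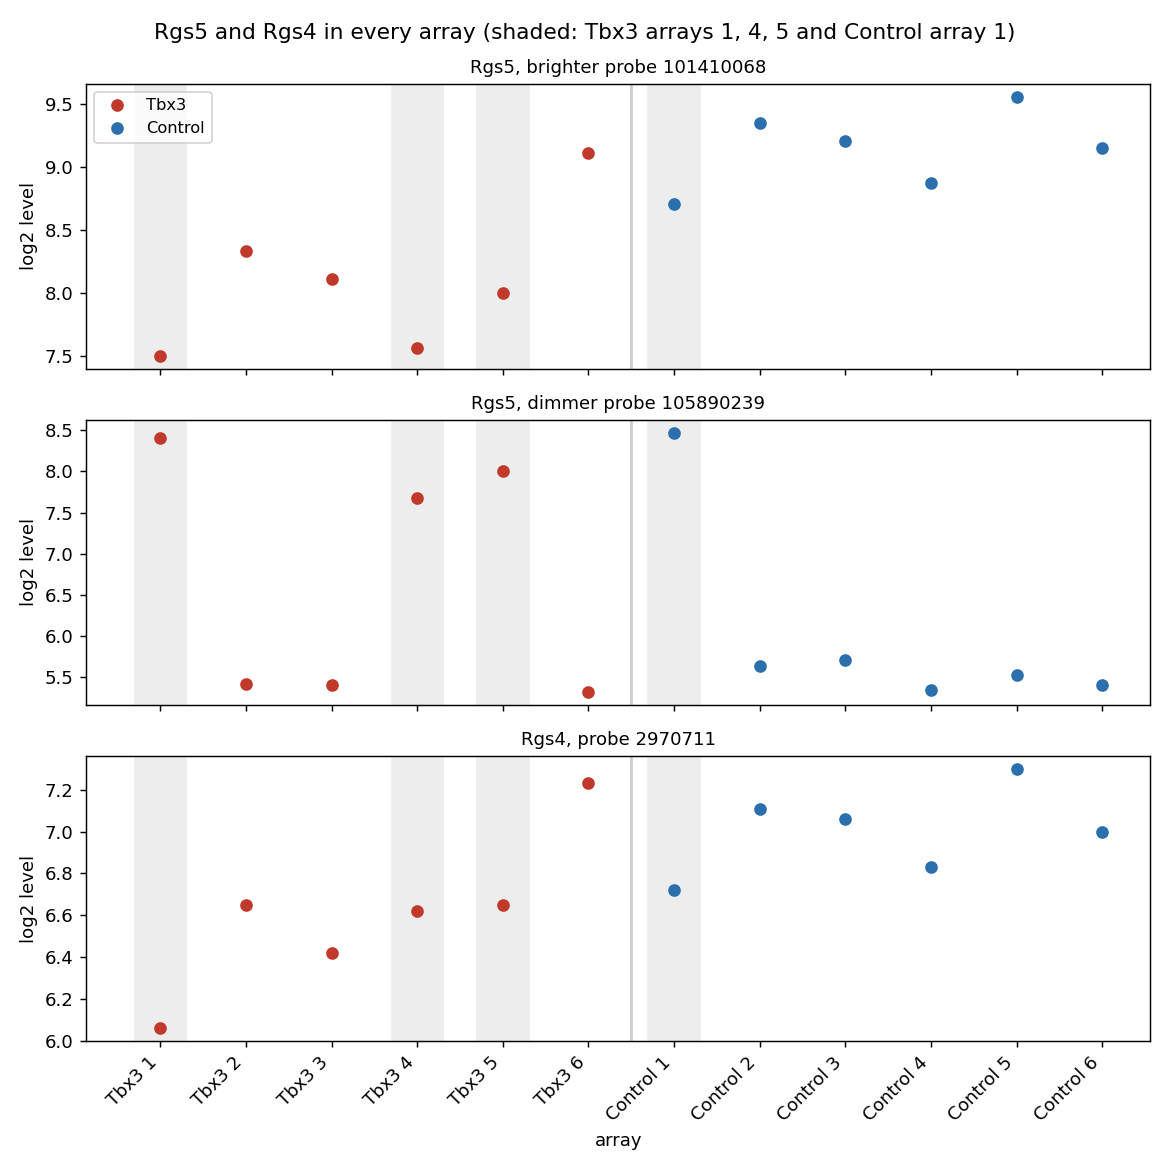
Log2 level (vertical axes) of the brighter Rgs5 probe, the dimmer Rgs5 probe and the Rgs4 probe in each array (horizontal axis, Tbx3 arrays in red on the left, Control arrays in blue on the right). Shading marks Tbx3 arrays 1, 4 and 5 and Control array 1, which read 7.68 to 8.47 on the dimmer Rgs5 probe and hold the lowest values of the brighter probe in their groups.

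Rgs4, which lies next to Rgs5 on chromosome 1 with no gene between them in the RefSeq table, is an R4 protein enriched in the mouse sinus node. Its probe read 6.06, 6.65, 6.42, 6.62, 6.65 and 7.23 in Tbx3 arrays 1 to 6, and 6.72, 7.11, 7.06, 6.83, 7.30 and 7.00 in Control arrays 1 to 6. As with the brighter Rgs5 probe, 5 of the 6 Tbx3 arrays lay below every Control array and array 6 did not. The means were 6.60 ± 0.38 and 7.00 ± 0.21 (SD, n = 6 each), and the change of -0.40 (SE 0.14) did not pass (adjusted p = 0.128). Without Tbx3 array 6 it was -0.52 and passed (adjusted p = 0.0103). The deviations of Rgs4 and of the brighter Rgs5 probe correlated at r = 0.88 over the 12 arrays, and those of Rgs4 and the dimmer probe at r = -0.56.

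The windows before the Rgs5 and Rgs4 starts are shown because the levels of these neighbours correlated over the arrays. They lie at chr1:169655251-169655500 (+) for Rgs5 and chr1:169747643-169747892 (-) for Rgs4 (RefSeq, GRCm38.p6), 5′ to 3′ on the gene's own strand. Capitals mark the letters CCAAT, a common promoter box, which read ATTGG here.
Rgs5: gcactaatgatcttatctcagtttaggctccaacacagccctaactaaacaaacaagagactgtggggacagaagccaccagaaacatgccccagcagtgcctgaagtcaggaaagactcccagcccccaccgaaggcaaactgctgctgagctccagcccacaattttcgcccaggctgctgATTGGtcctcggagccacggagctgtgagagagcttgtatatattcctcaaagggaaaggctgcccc
Rgs4: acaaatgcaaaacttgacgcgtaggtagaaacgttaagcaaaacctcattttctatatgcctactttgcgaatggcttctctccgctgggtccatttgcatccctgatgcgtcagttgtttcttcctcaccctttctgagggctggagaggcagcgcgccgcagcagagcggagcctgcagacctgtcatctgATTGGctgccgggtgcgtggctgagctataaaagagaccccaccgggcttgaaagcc
The box begins 67 bases before the start in Rgs5 and 57 in Rgs4. On either strand it also occurs in Rgs2 and Rgs16, so in 4 of the 10 member promoters, while 33.8% of all promoters of this length hold it. That count is near the share of all promoters. The 4 genes with the box are R4 members, but so is Rgs3, whose windows lack it, as do those of Rgs6, Rgs10 and Rgs12. Rgs1, a further R4 member, was not matched.

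The arrays' 2-state pattern was also seen in Fcer1g and Hsd17b7. By the correlation of deviations from the group means over the 12 arrays, among named probes at or above the median brightness, the 6 genes most like the dimmer Rgs5 probe were Fcer1g (r = 0.96), Utp25 (0.96), Hsd17b7 (0.92), Rcsd1 (0.88), Cdipt (0.88) and Nupr1 (0.87). They were looked up, and the length of the list set, after the pattern had been seen. Of the 6, the first 4 lie on chromosome 1, like Rgs5, and Cdipt and Nupr1 on chromosome 7, while 5.65% of the named probes searched lie on chromosome 1. Fcer1g, the gamma chain of Fc receptors, read 7.26, 5.39, 5.87, 7.43, 7.47 and 5.38 in Tbx3 arrays 1 to 6, and 7.27, 5.16, 5.16, 5.42, 5.53 and 5.04 in Control arrays 1 to 6. Hsd17b7, an enzyme of cholesterol synthesis with 4 listed genes between it and Rgs5, read 7.15, 6.27, 6.40, 7.27, 7.16 and 6.39 in Tbx3 arrays and 7.29, 5.93, 6.24, 5.79, 6.36 and 6.35 in Control arrays. The same 4 arrays were the high ones for both genes, and Fcer1g has 69 listed genes between it and Rgs5. Neither gene passed the comparison of the groups (adjusted p of 0.211 and 0.312), and of the 6 only Nupr1 did (change 0.59, adjusted p = 0.0183). A high r did not always mean 2 states. Utp25 read 5.79, 5.72 and 5.78 in Tbx3 arrays 1, 4 and 5, and 5.7 to 5.79 in Control arrays 2 to 6. Over all 12 arrays Rcsd1 ran only from 8.75 to 9.37 and Cdipt from 8.51 to 8.86.

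Among the pericyte and smooth muscle markers, which include genes usually expressed with Rgs5, 3 of 11 rose and 2 fell. The potassium channel gene Kcnj8, a pericyte marker, ran from 5.90 to 6.72 in Tbx3 atria, with a median of 6.06, and from 6.63 to 7.02 in Control atria, with a median of 6.79 (change -0.65, SE 0.12, adjusted p = 0.00115). Its partner subunit gene Abcc9 fell by 0.48 (adjusted p = 0.0112) on the brightest of 3 probes, and the mean of the 3 changed by -0.06 (adjusted p = 0.85). Smooth muscle Acta2, Tagln and Myh11 rose by 0.88, 0.77 and 0.76 on their brightest probes, with 3 of 5, 1 of 2 and 1 of 2 probes called. Cnn1, also a smooth muscle gene, changed by 0.02 and did not pass (adjusted p = 0.985). Pdgfrb, Cspg4, Notch3, Mcam and Higd1b had changes of 0.23, 0.06, 0.13, 0.12 and -0.30 and did not pass. The mean level of the list ran from 7.19 to 7.50 in Tbx3 arrays and from 7.18 to 7.30 in Control arrays, and its part in the change of Rgs5 was not tested. Without the 4 arrays named above Kcnj8 and Abcc9 changed by -0.51 and -0.38 (adjusted p of 0.191 and 0.296).

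Rgs1, Rgs2 and Rgs16 had no probe past the test, and 0 of their 6 probes had an unadjusted p under 0.05. Rgs2, which prefers Gq and is known as a regulator of blood pressure in mice, averaged 5.98 ± 0.23 in Tbx3 atria and 5.95 ± 0.24 in Control atria on its brighter probe (SD, n = 6 each), with a change of 0.03 and a 95% interval from -0.21 to 0.28. The dimmer Rgs2 probe averaged 5.86 ± 0.41 in Tbx3 atria and 5.85 ± 0.16 in Control atria, an interval from -0.27 to 0.29. Rgs2 responds quickly to stimulation in many cells. Of 11 early response genes in these arrays 1 (Dusp1) passed limma's test as higher and 0 as lower. At an unadjusted p under 0.05 there were 2 higher and 1 lower. Atf3 had the largest change of the list, -1.43, and did not pass (adjusted p = 0.0706). Its SD was 0.73 in Tbx3 arrays and 1.61 in Control arrays.

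The 3 probes of Rgs1, a lymphocyte gene, changed by 0.07, -0.09 and -0.09, and the widest of their intervals ran from -0.33 to 0.14. The brightest Rgs1 probe lay at the 59th percentile of all probes. Rgs16, whose probe lay at the 31.5th percentile, averaged 5.35 ± 0.10 in Tbx3 atria and 5.40 ± 0.14 in Control atria (change -0.06, interval -0.26 to 0.14). Of the 22 member probes 7 lay below the median brightness of the table, among them the only Rgs16 probe.

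Of the other RGS genes and their binding proteins, 24 were measured, 1 fell, 0 rose and 23 did not pass, with a median change of 0.00 against -0.0032 over all 17655 genes, each by its brightest probe. At an unadjusted p under 0.05 limma gave 1 higher and 5 lower. The gene that fell was Rgs7, the R7 relative of Rgs6. It ran from 6.27 to 6.82 in Tbx3 atria, with a median of 6.54, and from 7.49 to 8.14 in Control atria, with a median of 7.68. The groups did not overlap, and the change was -1.19 (SE 0.12, 2.28-fold lower, adjusted p = 1.09e-07), opposite in sign to that of Rgs6. Gnb5, the beta subunit that binds both, averaged 7.75 ± 0.08 in Tbx3 atria and 7.72 ± 0.13 in Control atria (SD, n = 6 each, adjusted p = 0.948), and 0 of its 3 probes passed. Rgs9 and Rgs11, the other R7 genes, changed by 0.01 and 0.10 and did not pass.

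The rest of the G protein pathway was counted in 4 lists, and with the list above 14 of 105 measured genes (13.3%) passed, 10 higher and 4 lower, where the shares of all genes were 5.95% in all, 2.97% higher and 2.98% lower. The lists, like the members, were written with earlier results known. Of 15 alpha subunit genes 1 rose, 0 fell and 14 did not pass (3 higher and 0 lower at an unadjusted p under 0.05), with a median change of 0.05. The gene was Gnai2, a main Gi alpha subunit of the heart, which averaged 10.47 ± 0.26 in Tbx3 atria and 10.07 ± 0.14 in Control atria (change 0.40, adjusted p = 0.0395). Gnai2 was not called without quantile normalization or with some single arrays left out (adjusted p up to 0.12). Gnaq, the Gq alpha subunit, changed by 0.10 on the brightest of its 6 probes, at the 94.3rd percentile (adjusted p = 0.825). A second Gnaq probe, at the 92.3rd percentile, rose by 0.41 (adjusted p = 0.0392), and the other 4 had changes from -0.17 to 0.11 and did not pass. Gnao1, the Go alpha subunit, changed by 0.30 on the brightest of its 5 probes and did not pass (adjusted p = 0.0927), while 1 of the 5 was called.

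Of 17 beta and gamma subunit genes 2 rose and 1 fell, with a median change of 0.03. Gng2, a gamma subunit, ran from 7.58 to 8.24 in Tbx3 atria, with a median of 7.95, and from 9.07 to 9.71 in Control atria, with a median of 9.23. The ranges were apart, with Tbx3 below, and the change was -1.35 (SE 0.12, 2.55-fold lower, adjusted p = 6.12e-09). Gnb1 and Gng10 rose by 0.41 and 0.35 (adjusted p of 0.02 and 0.0419), and both calls were lost when single arrays were left out (adjusted p up to 0.0639 and 0.117). A second Gng10 probe, at the 92.5th percentile, changed by 0.21 and did not pass (adjusted p = 0.444).

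Of 23 receptor genes 4 rose and 1 fell, with a median change of 0.03. S1pr2, a sphingosine-1-phosphate receptor, rose by 0.61 on its brighter probe (SE 0.11, adjusted p = 0.000526). Its dimmer probe changed by 0.03 and did not pass (adjusted p = 0.962), and the mean of the pair rose by 0.32 (adjusted p = 0.0499). The lysophosphatidic acid receptor gene Lpar1 and the thrombin receptor gene F2r rose by 0.53 and 0.42 (adjusted p of 0.00267 and 0.0157), and the apelin receptor gene Aplnr fell by 0.64 (adjusted p = 0.0173). F2r and Aplnr were not called under some alternatives (adjusted p up to 0.0613 and 0.108). The fourth that rose was the angiotensin receptor gene Agtr1a (0.44, adjusted p = 0.0365), named to complete the count. Chrm2, the M2 muscarinic receptor, averaged 6.68 ± 0.16 in Tbx3 atria and 6.33 ± 0.57 in Control atria (SD, n = 6 each) and did not pass (adjusted p = 0.397).

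Of 26 effector and receptor kinase genes 3 rose and 1 fell, with a median change of 0.06. Kcnj3 ran from 7.55 to 8.20 in Tbx3 atria, with a median of 8.04, and from 8.79 to 9.66 in Control atria, with a median of 8.87. The groups did not overlap, and its pair of probes changed by -0.99 and -0.69 (adjusted p of 1.2e-05 and 0.000634). Kcnj5, the other subunit gene of the muscarinic channel, rose by 0.40 on its brighter probe (adjusted p = 0.0281, up to 0.0879 with single arrays left out) and had 0.19 on the dimmer (adjusted p = 0.608). The adenylyl cyclase genes Adcy7 and Adcy8 rose by 0.61 and 0.46 (adjusted p of 0.000237 and 0.0111). In these arrays 4 of 10 atrial muscle markers fell and 0 rose, with mean levels of 11.23 to 11.62 in Tbx3 arrays and 11.75 to 11.97 in Control arrays. Those that fell were Nppa, Sln, Ryr2 and Myh6, with changes of -1.35, -0.80, -0.46 and -0.41. The others did not pass and changed by -0.26 to 0.08, and Myl4 read 15.40 in every Control array (SD 0.00). The part of these markers in the lower genes was not tested. Without Tbx3 arrays 1, 4 and 5 and Control array 1 the genes still called among those named in the G protein lists were Rgs7, Gng2, Kcnj3, S1pr2, Adcy7 and Kcnj5, with changes of -0.95, -1.24, -0.91, 0.61, 0.57 and 0.59.

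**Figure D4:**
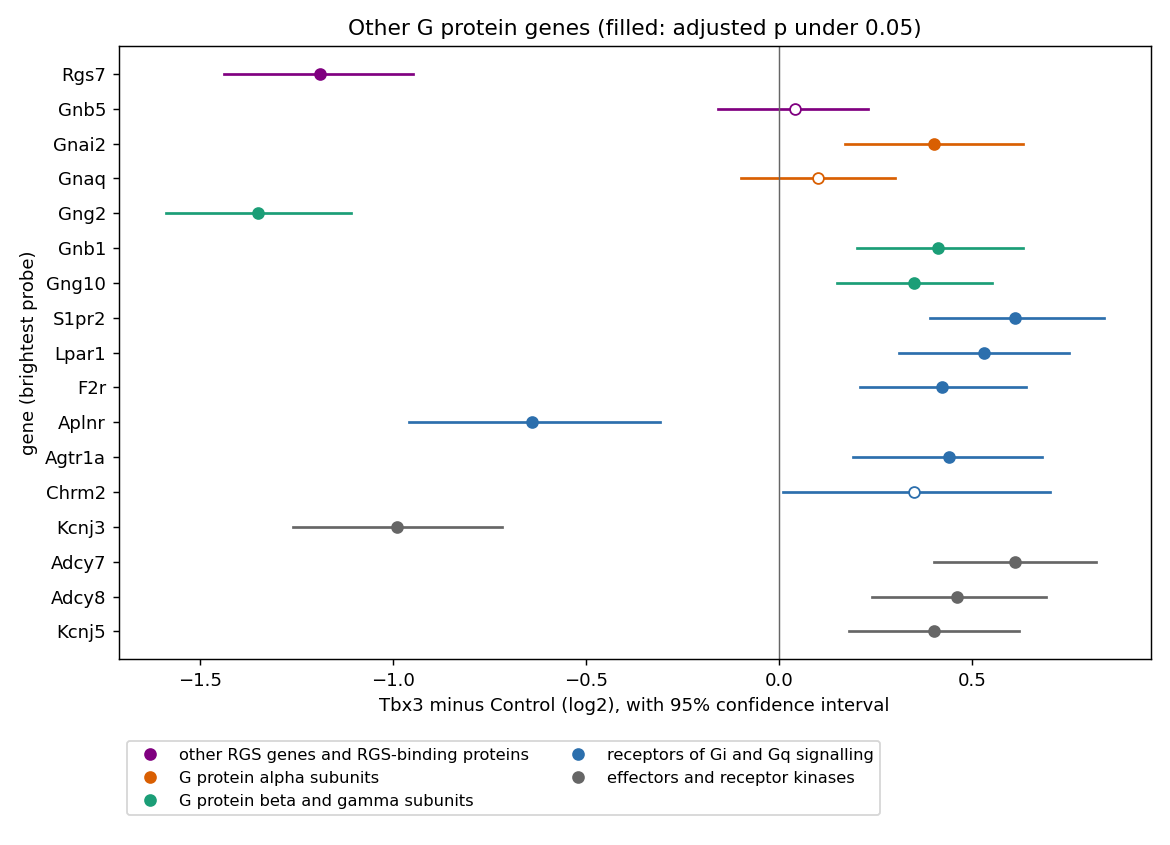
Change of other G protein genes, Tbx3 minus Control in log2 units on the brightest probe (horizontal axis), with 95% confidence intervals (lines) and genes grouped by list (colours). Filled points passed an adjusted p of 0.05 and open points (Gnb5, Gnaq and Chrm2) did not. Rgs7, Gng2 and Kcnj3 lie near or beyond -1, and the genes that rose lie between 0.35 and 0.61.

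The genes whose deviations from the group means were most like those of the called members were listed without a test, over 12 arrays. For Rgs12 they were Adam23 (r = 0.88), Ktn1 (0.87) and Rgl1 (0.87), and none of the 3 passed the comparison of the groups. For Rgs6 they were Gdf10 (0.96), a growth factor gene, LTO1 (0.90) and Gpx3 (0.89), of which Gdf10 and Gpx3 rose by 0.95 and 0.36 (adjusted p of 0.000945 and 0.04). For the brighter Rgs5 probe they were Ttc7b (0.94), Scn3b (0.92) and Grrp1 (0.92), with Rgs4 as the sixth (0.88). For Rgs10 they were Tcaf1 (0.96), a second probe of the fibroblast proteoglycan gene Dcn (0.92) and Ndn (0.92). These Dcn and Ndn probes rose by 0.46 and 0.45 (adjusted p of 0.0177 and 0.0247). The brightest Dcn probe changed by 0.15 and did not pass (adjusted p = 0.604), and 2 of the 5 Dcn probes were called. All these values of r are the highest of a search over the named probes above the median brightness. In so wide a search over 12 arrays, with the group means removed, some high values can arise by chance.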

How the data were processed

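Total RNA from the atria of 6 Tbx3 and 6 Control mice was column-extracted, amplified and biotin-labelled, per the labels' protocols. The authors deposited a table of log-scale values per probe and array. How they corrected background and normalized, the log base, and which arrays shared a chip: not given in the sources used here. Values in the deposited table, from 2.63 to 10.81, were read as natural log values, since on base e the top is 49513, just under the 16-bit ceiling of 65535. They were converted to log2 levels. Of 46133 rows 10 were empty and 9 repeated others, and no member probe was among the repeats. Array medians differed by at most 0.0866 log2 and interquartile ranges ran from 0.54 to 0.65 in deposited units, and the arrays were quantile-normalized. Symbols came from the platform annotation, updated through RefSeq (GRCm38.p6), for 29533 of 46114 probes. Titles gave each sample's group and replicate number, and per the labels the samples are biological replicates.

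Tbx3 minus Control was fitted over all probes with limma 3.58.1 in R 4.3.3 (lmFit and eBayes, 2-sided, no dim-probe filter, 28.4 degrees of freedom in total), adjusted by Benjamini-Hochberg with a threshold of 0.05. The script was tested on simulated data. Precision is limited by having 6 arrays a group. The members and lists were chosen with earlier results of these data known. The rule for named genes takes all member probes, up to 4 called genes of each pathway list with the smallest p, the fixed genes Chrm2, Adora1, Gnai2, Gnaq, Gnb5 and Kcnj3 (no Adora1 probe was used here), and the 3 genes most like each called member by its brightest probe. Marker genes, Agtr1a, Gnao1 and the genes like the dimmer Rgs5 probe were named after their values were seen. Of the other marker lists, 1 of 7 neuron, 1 of 2 Schwann cell and 1 of 5 red cell genes rose and 0 fell, and at an unadjusted p under 0.05 there were 2, 1 and 5 higher and 0 lower. The red cell genes had a median change of 0.68 and mean levels of 10.72 to 11.93 in Tbx3 arrays and 9.07 to 11.14 in Control arrays, and their part in the RGS changes was not tested. Of 8 endothelial genes 0 passed limma's test (2 higher and 2 lower at an unadjusted p under 0.05).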

Additional observations from a re-analysis of the deposited data

Results flagged for a closer look

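In 44 groups of 6 arrays (22 member probes in 2 groups) a single array stood far from the other 5 on 2 occasions, by the gap to its nearest neighbour as a share of the range. Chance would flag about 1 in 20. On the dimmer Rgs5 probe (105890239) Control array 1 read 8.47, where the other Control arrays lay between 5.34 and 5.71, a gap of 0.884 of the range. In the Tbx3 group, where 3 of the 6 arrays were also high, no array stood alone on that probe. On the dimmer Rgs12 probe (1190082) Control array 4 read 4.92, where the other Control arrays lay between 5.37 and 5.47, a gap of 0.821 of the range. Neither probe was called between the groups.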

How the results depend on the processing

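Across 22 alternatives the brighter Rgs12 probe, Rgs6 and Rgs3 probe 60670 kept their direction and stayed past the threshold wherever the probe itself was tested. Their changes were 0.75 to 1.16, 0.51 to 0.78 and 0.49 to 0.75. The low ends come from the base 2 reading, a change of unit that alters no p-value, and otherwise were 1.03, 0.67 and 0.67. Where all probes of a gene were averaged, Rgs12 changed by 0.60 and was called (limma, adjusted p = 0.000686). The Rgs3 average changed by -0.08 and was not called (adjusted p = 0.605). No called member probe changed sign. The 12 fits that each left out 1 array gave 3 to 4 member probes higher, 2 to 3 lower, 1187 to 1613 probes called in all and 9 to 14 of the other G protein genes, the 9 without Tbx3 array 1 or 3. Rgs10 was not called in 12 of the 22 alternatives (adjusted p up to 0.671) and Rgs3 probe 4610402 in 2. The brighter Rgs5 probe was not called with an intensity trend and robust variance (adjusted p = 0.0685), which left 1 member probe lower in place of 2, and the cause was not tested. At an adjusted p of 0.01 there were 3 member probes higher, 1 lower, 896 probes in all and 6 other G protein genes in place of 14. With each gene as its probes' mean, where fewer features are tested and probes that disagree cancel, 2 member genes were higher, 0 lower (limma; the Rgs5 mean changed by -0.18) and 914 genes were called in all. Without Tbx3 arrays 1, 4 and 5 and Control array 1, chosen after seeing the data, 3 member probes were higher, 0 lower (limma, 3 against 5 arrays), 413 probes were called and 6 other G protein genes. The fit with the replicate number as a block gave 4 member probes higher, 2 lower, 1580 probes in all and 13 other G protein genes, and it changed no member call. Same-numbered arrays did not deviate together (correlations from -0.02 to 0.07), and 1 of 6 Tbx3 arrays correlated best with its own number, so the arrays were not taken as pairs. Single arrays made a call for Rgs4 (-0.52 without Tbx3 array 6) and for Rgs3 probe 540736 (-0.41 without Control array 3, adjusted p = 0.0312). The 7 member probes below the median brightness (3 of Rgs3, 2 of Rgs1, 1 each of Rgs12 and Rgs16) may lie near background, and Rgs16 alone among the members has no brighter probe.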
